A study of Mus musculus with 12 samples.

Results

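The Hox genes of the 4 clusters were examined in R1 mouse embryonic stem cells, before and after retinoic acid, with and without inhibition of OGT, the enzyme that adds O-linked N-acetylglucosamine to nuclear and cytoplasmic proteins. Members were all protein-coding entries whose symbol is Hoxa, Hoxb, Hoxc or Hoxd followed by a number. They came to 39 genes on 40 of the 54555 entries of the deposited table, with 11 genes in Hoxa, 10 in Hoxb, 9 in Hoxc and 9 in Hoxd. Hoxd4 has 2 entries, whose coordinates overlap.

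RNA from 12 libraries was sequenced, 3 in each of 4 groups of the same unmodified line. RA_OGTi cells had 25 µM of the OGT inhibitor Ac45SGlcNAc for 48 h and then, in medium without leukemia inhibitory factor (LIF), 48 h of retinoic acid (RA) at 1 µM. RA_control cells had the vehicle, DMSO, in place of the inhibitor before the same RA step. mESC_OGTi cells had 25 µM inhibitor for 48 h, and mESC_control cells had none; both stayed in serum medium with LIF. RA and LIF withdrawal therefore cannot be told apart, and the sources used here do not say whether inhibitor was present during the RA step. What the replicate numbers mark is not in the labels; the p-values below thus reflect spread among libraries, which may be technical only.

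Hox genes encode homeodomain transcription factors that give cells their position along the head-to-tail axis. Within a cluster the genes lie in the order of their paralog numbers, and in the embryo low-numbered genes come on earlier and further forward than high-numbered ones. In embryonic stem cells the clusters are held by Polycomb complexes, and RA acting through its nuclear receptors is the classical inducer, with the low-numbered genes responding first. The values below are FPKM, fragments scaled by transcript length and library depth, so levels can be compared between genes. A call means a Benjamini-Hochberg adjusted p under 0.05 in limma's two-sided test on log2(FPKM + 1), adjusted over all genes tested.

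In GRCm38 coordinates the Hoxb members span chr11:96194316-96368256, the Hoxc members chr15:102921103-103036852 and the Hoxd members chr2:74668310-74765142. Promoter stretches of 4 genes that carry the results below are shown, as listed by RefSeq for GRCm38.p6, each ending at the base before the deposited gene start. Capitals mark a match to TGATNNAT, the composite site at which Hox and Pbx proteins bind together, or to AGGTCA, the single site from which RA response elements are built, on either strand. Hoxb1 (chr11:96365508-96365751, plus strand) holds the Hox-Pbx match 156 bases before its start. Hoxb4 (chr11:96318017-96318266, plus strand) holds AGGTCA on the opposite strand, so that its complement is shown. Hoxa5 (chr6:52204588-52204837, minus strand) and Hoxd9 (chr2:74697513-74697726, plus strand) hold neither in the bases shown.
Hoxb1: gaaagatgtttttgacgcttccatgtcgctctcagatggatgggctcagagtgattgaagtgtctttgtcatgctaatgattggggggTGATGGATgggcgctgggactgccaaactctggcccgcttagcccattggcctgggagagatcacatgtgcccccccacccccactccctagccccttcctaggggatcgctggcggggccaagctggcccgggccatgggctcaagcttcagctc
Hoxb4: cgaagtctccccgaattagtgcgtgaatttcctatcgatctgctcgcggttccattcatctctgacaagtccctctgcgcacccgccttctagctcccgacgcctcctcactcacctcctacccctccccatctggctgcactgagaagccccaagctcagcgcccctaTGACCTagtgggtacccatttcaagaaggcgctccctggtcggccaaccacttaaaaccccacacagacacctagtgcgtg
Hoxa5: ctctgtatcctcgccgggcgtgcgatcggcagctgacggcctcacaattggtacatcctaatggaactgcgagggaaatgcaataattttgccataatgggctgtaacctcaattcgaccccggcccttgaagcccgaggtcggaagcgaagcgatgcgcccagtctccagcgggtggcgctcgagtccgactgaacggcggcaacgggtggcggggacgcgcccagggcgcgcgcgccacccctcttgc
Hoxd9: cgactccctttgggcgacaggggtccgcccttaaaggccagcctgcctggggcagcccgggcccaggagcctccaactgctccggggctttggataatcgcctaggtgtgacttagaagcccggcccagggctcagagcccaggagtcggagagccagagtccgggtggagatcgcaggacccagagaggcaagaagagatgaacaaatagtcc

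RefSeq promoter windows, from 250 bases before to 50 after a start, were matched for 22 member genes, 24 windows in all. TGATNNAT occurred in 4 of the 24 (16.7%), those of Hoxa2, Hoxb1, Hoxb8 and Hoxd11, against 8.85% of all 32851 windows. AGGTCA occurred in 7 of 24 (29.2%), those of Hoxa5, Hoxb4, Hoxc4, Hoxd3, Hoxd4, Hoxd8 and Hoxd10, against 16.3% of all windows. For Hoxa5 the match lies outside the bases shown above. Full RA response elements, searched as direct repeats of AGGTCA with 5 or 2 bases between, were in 0 of the 24 and each in 0.00913% of all windows. Both strands were read, and each repeat contains AGGTCA. CpG dinucleotides numbered a median of 4.83 per 100 bases in Hox windows and 2.33 in all windows. These counts describe letters in a short window and carry no information on binding.

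Whole fragment numbers could be recovered from the FPKM of every library and ran from 15553627 to 17833464 per library. Transcripts of 5 pluripotency markers (Pou5f1, Sox2, Nanog, Zfp42, Esrrb) summed to 233 to 250.3 FPKM in RA_OGTi, 283 to 318 in RA_control, 1792 to 1834 in mESC_OGTi and 1821 to 1825 in mESC_control, and none of the 5 was at 0 in any group. Feeder or fibroblast markers summed to 11.8 to 23.2 FPKM in every library, with Col3a1 at 0 in every library of RA_control, mESC_OGTi and mESC_control, and S100a4 at 0 in every library of RA_OGTi, RA_control and mESC_OGTi. In bulk RNA, fewer cells that transcribe a gene and less RNA per cell cannot be told apart.

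Stem cells held little Hox RNA. The 40 entries together summed to 12.3, 13.6 and 13.8 FPKM in mESC_OGTi and 11.1, 11.5 and 12.2 FPKM in mESC_control. Only 5 entries averaged 1 FPKM or more in mESC_OGTi, Hoxc13, Hoxd1, Hoxc12 and Hoxb13 among them, and 3 did in mESC_control, Hoxc13 and Hoxd1 among them. These named genes lie at or next to an end of their cluster. Hoxc13, known for hair follicle differentiation, was the highest, at 2.60, 2.47 and 2.60 FPKM in mESC_OGTi and 2.09, 2.81 and 2.15 FPKM in mESC_control. Hoxd1, which in the mouse shapes pain-sensing neurons, had 1.01, 1.47 and 1.55 FPKM in mESC_OGTi and 1.54, 1.43 and 0.98 FPKM in mESC_control. The Hoxb genes from Hoxb1 to Hoxb8 were each below 0.5 FPKM in every stem cell library, with Hoxb3, Hoxb5 and Hoxb6 at 0 in all 6 stem cell libraries. Of all 40 entries, 8 were at 0 in every stem cell library.

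**Figure D1:**
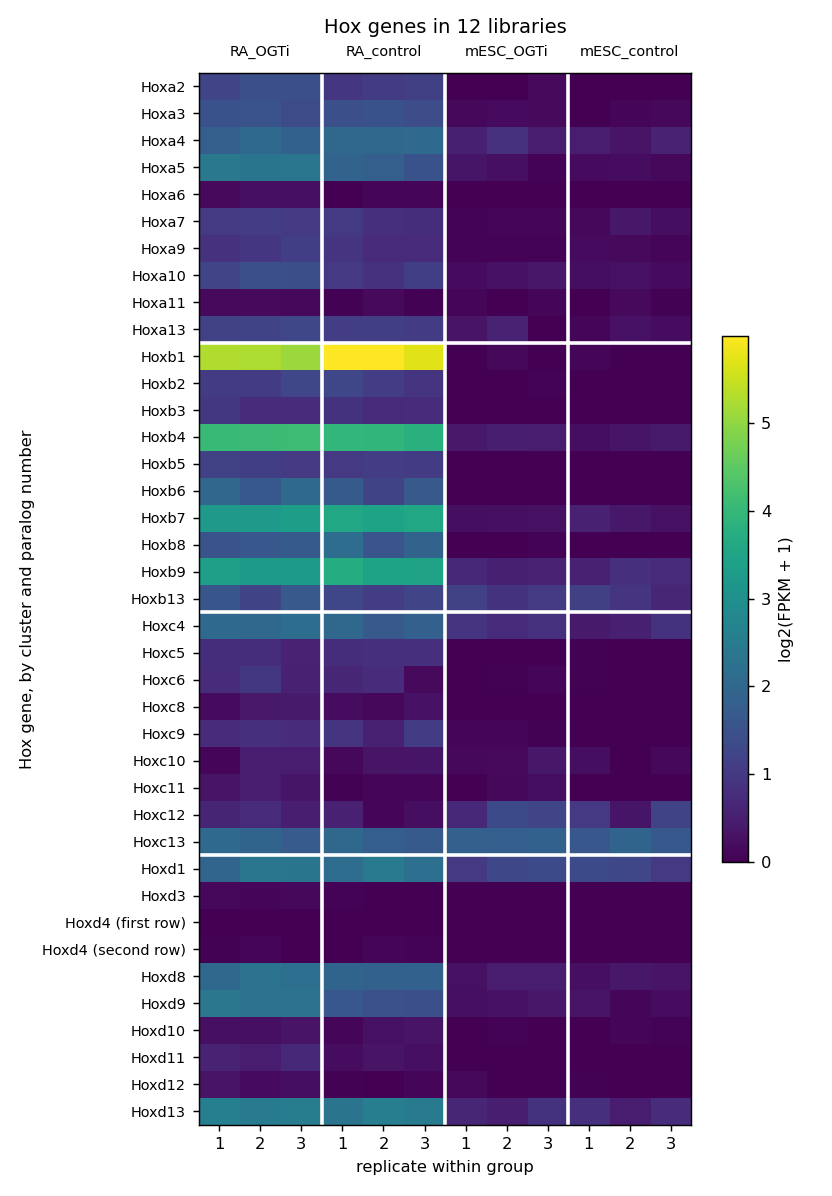
Level of 39 Hox entries in every library as log2(FPKM + 1), in colour, with genes in rows by cluster and paralog number and libraries in columns by group. The Hoxb1 entry is the brightest in the RA libraries, the Hoxb cluster brightens as a whole, and Hoxc13 keeps a similar colour above 0 in all 12 libraries.

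RA without inhibitor brought Hox RNA to a sum of 161, 154 and 144 FPKM in RA_control, against 11.1, 11.5 and 12.2 FPKM in mESC_control. Of the 39 entries with any fragment, 29 rose and 0 fell when every entry above 0 was tested, and in the same test 20.8% of all genes rose and 17.9% fell. The median difference was 0.83 on the log2(FPKM + 1) scale for Hox entries and 0.0067 for all genes. By cluster, 9 of 11 Hoxa, 9 of 10 Hoxb, 5 of 9 Hoxc and 6 of 9 Hoxd entries rose. With a filter that kept genes reaching 1 FPKM in 3 libraries or more, 24 entries remained, and 21 of them rose and 1 fell, against 33.7% and 37.2% of all 14866 genes so tested. Since 19 of those 24 passed that filter only through the RA libraries, they had to differ, and the unfiltered count is the one to read.

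Hoxb1, which specifies a segment of the hindbrain, became the most abundant Hox RNA. It had 62.1, 62.7 and 51.7 FPKM in RA_control, against 0.0548, 0 and 0 FPKM in mESC_control. That is 7349 fragments over the 3 RA_control libraries and 2 over the 3 mESC_control libraries, so no fold is given. Hoxb1 lies at chr11:96365752-96368256 (ENSMUSG00000018973), at the low-numbered end of its cluster.

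Within the Hoxb cluster Hoxb4, Hoxb9 and Hoxb7 followed in RA_control. Hoxb4, known for expanding blood stem cells, had 14.6, 14.3 and 13.0 FPKM in RA_control, against 0.173, 0.259 and 0.343 FPKM in mESC_control. Its mean was 54.1 times that of mESC_control (adjusted p = 7.68e-12). This p, and those below for Hoxa4, Hoxd13 and Hoxc4, come from the filtered fit, which these genes entered only through RA libraries. Their rises were also called in every alternative, the unfiltered fit among them. The highest adjusted p there was 1.12e-07 for Hoxb4, 5.52e-06 for Hoxa4, 6.87e-06 for Hoxd13 and 0.000128 for Hoxc4. Hoxb1, Hoxb4 and the pair after them do not overlap in their RA_control values, whereas Hoxb9 and Hoxb7 do.

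Hoxb9 and Hoxb7, which pattern the thoracic skeleton, averaged 10.7 ± 1.16 and 10.7 ± 0.461 FPKM in RA_control (SD, n = 3), against 0.627 ± 0.153 and 0.319 ± 0.126 FPKM in mESC_control. Both stood above Hoxb5, Hoxb6 and Hoxb8, which lie beside and between them and averaged 1.06, 1.92 and 2.73 FPKM in RA_control. Expressed as bounds against 3 fragments in each mESC_control library, where none was seen, Hoxb8 was at least 37.3-fold higher in RA_control, Hoxb2 at least 20.4-fold, Hoxb6 at least 19.6-fold, Hoxb3 at least 16.2-fold and Hoxb5 at least 15.3-fold. Hoxc9 and Hoxa2 were at least 10.1-fold and 9.87-fold higher in RA_control on the same basis, and Hoxc8 at least 2.31-fold.

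Levels did not follow paralog number in every cluster. Across the 11 Hoxa genes, mean FPKM fell with paralog number in the RA-treated cells, with Spearman rho of -0.71 in RA_OGTi and -0.58 in RA_control. Across the 10 Hoxb genes rho was -0.0061 in RA_OGTi and 0.018 in RA_control. Across the 9 Hoxc genes it was -0.20 in RA_OGTi and -0.28 in RA_control, and across 9 Hoxd genes 0.28 in RA_OGTi and 0.13 in RA_control. Genes of a cluster share libraries and neighbours, so these values only describe the shape of each profile.

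**Figure D2:**
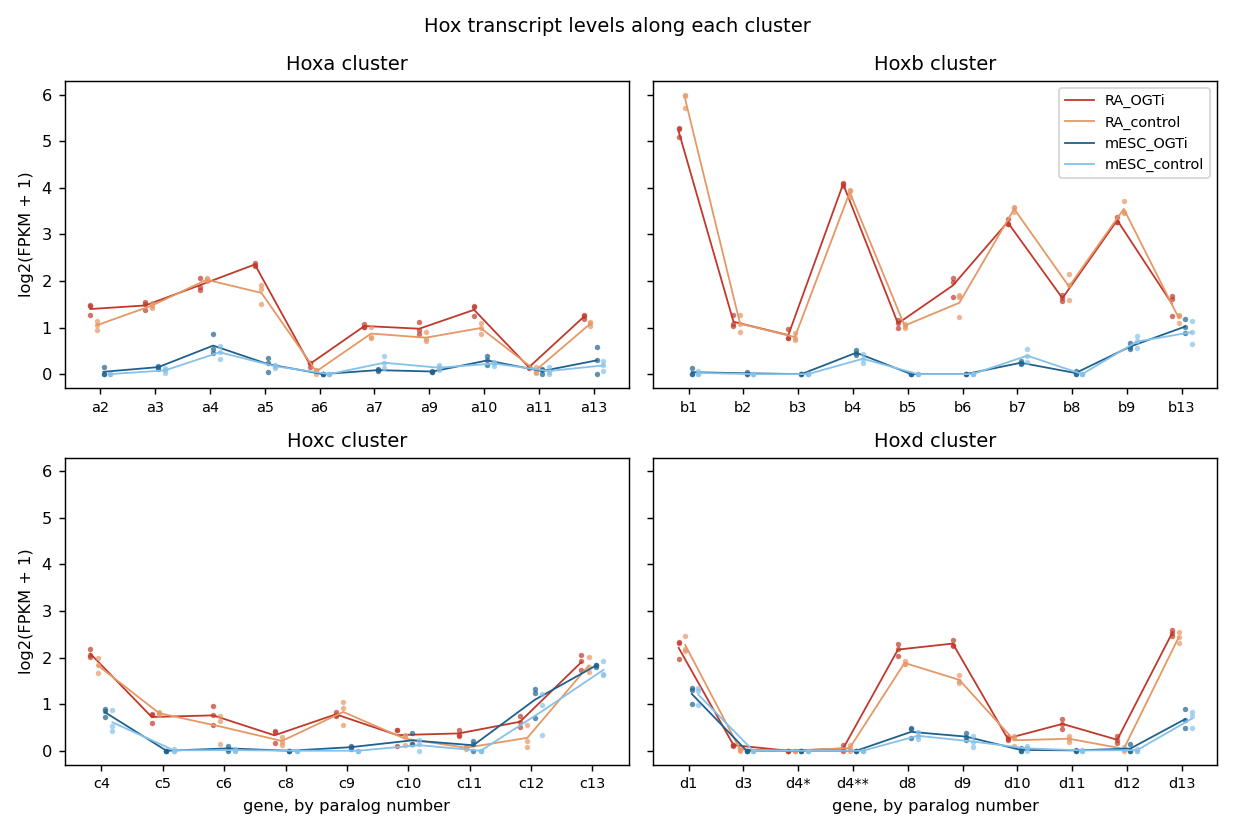
Level of Hox genes as log2(FPKM + 1) by paralog number, 1 panel per cluster, with dots for single libraries and lines through the means of the 3 libraries of a group; the 2 starred entries are those of Hoxd4. In the RA groups Hoxb peaks at Hoxb1, Hoxb4, Hoxb7 and Hoxb9, and Hoxd is high at Hoxd1, Hoxd8, Hoxd9 and Hoxd13 with little between.

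In the Hoxa cluster Hoxa4, which patterns the neck vertebrae, was at 2.97, 3.09 and 3.15 FPKM in RA_control, against 0.399, 0.250 and 0.513 FPKM in mESC_control. All RA_control values lay above all mESC_control values (adjusted p = 2.77e-07). Antisense exons of Gm29430 cover 16.0% of the exon bases of Hoxa4.

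In the Hoxd cluster the leading genes sat at its ends. Hoxd13, the gene of digits and the urogenital tract, had 3.94, 4.87 and 4.44 FPKM in RA_control, against 0.768, 0.401 and 0.684 FPKM in mESC_control (adjusted p = 1.02e-07). Hoxd1 had 3.44, 4.51 and 3.58 FPKM in RA_control, against 1.54, 1.43 and 0.98 FPKM in mESC_control (adjusted p = 3.18e-05). Between them, Hoxd10, Hoxd11 and Hoxd12 reached at most 0.254 FPKM in any RA_control library.

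The Hoxc cluster responded least in level. Its sum was 8.87, 7.01 and 7.47 FPKM in RA_control, against 3.64, 3.51 and 4.42 FPKM in mESC_control. Hoxc4, at the low-numbered end, had 2.98, 2.19 and 2.57 FPKM in RA_control, against 0.347, 0.440 and 0.833 FPKM in mESC_control (adjusted p = 2.72e-06). Hoxc13 had 3.01, 2.46 and 2.24 FPKM in RA_control, overlapping the 2.09, 2.81 and 2.15 FPKM of mESC_control. Hoxc12 was called lower (-0.57 ± 0.23 (SE) in log2(FPKM + 1), adjusted p = 0.0444) on 12 fragments in RA_control against 42 in mESC_control; its values overlapped between the groups, and the call was lost in 6 of 12 alternative analyses.

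The same RA step after OGT inhibition also raised the clusters. With every entry above 0 tested, 34 of 39 rose in RA_OGTi over mESC_OGTi and 0 fell, where 20.5% of all genes rose and 17.3% fell. By cluster, 10 of 11 Hoxa, 10 of 10 Hoxb, 6 of 9 Hoxc and 8 of 9 Hoxd entries rose. Of the 39, Hoxa11, Hoxc10, Hoxc12, Hoxc13 and the second Hoxd4 entry did not pass. With the filter at 1 FPKM, 22 of 24 rose and 0 fell, where 32.0% and 36.7% of all genes did; without mESC_OGTi replicate 1, 1 fell, Hoxc12. The median was 0.95 on the log2(FPKM + 1) scale for the 39 entries and 0.0071 for all genes. The sum of all entries was 147, 147 and 146 FPKM in RA_OGTi, against 12.3, 13.6 and 13.8 FPKM in mESC_OGTi.

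The question that the inhibitor design puts to these genes is whether OGT inhibition before RA changes the Hox programme. In RA-treated cells the total hardly moved, but its make-up did. The sum of all entries was 146.8 ± 0.622 FPKM in RA_OGTi and 153 ± 8.53 FPKM in RA_control (SD, n = 3). Hoxb sums were 81.3, 78.7 and 78.0 FPKM in RA_OGTi, against 110, 105 and 94.6 FPKM in RA_control. Hoxa sums were 40.0, 41.6 and 41.9 FPKM in RA_OGTi, against 29.7, 28.3 and 29.1 FPKM in RA_control. Hoxd sums were 16.2, 17.1 and 17.3 FPKM in RA_OGTi, against 12.5, 14.4 and 13.0 FPKM in RA_control. So in each of these 3 clusters the groups did not overlap, Hoxb being lower and Hoxa and Hoxd higher in RA_OGTi. Without Hoxb1 the Hoxb sums overlapped, at 43.5, 41.5 and 44.8 FPKM in RA_OGTi and 47.9, 42.0 and 42.9 FPKM in RA_control. Hoxc sums were 9.42, 10.03 and 8.89 FPKM in RA_OGTi and 8.87, 7.01 and 7.47 FPKM in RA_control, with the lowest RA_OGTi value just above the highest RA_control value.

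Gene by gene, with every entry above 0 tested, 10 of 39 entries rose and 2 fell in RA_OGTi over RA_control, where 8.05% of all genes rose and 5.96% fell. With the filter at 1 FPKM, 6 of 24 rose and 2 fell, where 17.6% of all genes rose and 14.3% fell. In either direction 30.8% of the 39 entries were called without the filter, where 14.0% of all genes were, and 33.3% of the 24 with it, where 31.9% of all genes were. The share thus lay above that of all genes without the filter and near it with the filter, and this difference was not itself tested. Without RA_OGTi replicate 3 there were 3 higher calls, where 1904 of all 14719 genes were higher. Without RA_OGTi replicate 1 there was 1 lower call, where 1561 of all 14706 genes were lower. With a pseudocount of 0.1 there were 2 higher and 1 lower of 24, where 2444 and 1982 of all 14866 genes were. Limma-voom on the recovered fragments called 8 of 39 higher and 3 lower, where it called 3077 and 2448 of all 24263 genes. The calls divided by cluster: under the filter 4 of 8 Hoxa and 2 of 4 Hoxd genes rose, 2 of 9 Hoxb genes fell, and of 3 Hoxc genes none passed. Of the Hoxa genes called, 2, Hoxa2 and Hoxa10, passed the filter only through their RA_OGTi libraries, the group in which they were higher; both were also called without the filter. No Hoxa or Hoxd gene was called lower, with the filter or without it, and no Hoxb gene was called higher in those fits, although Hoxb6 was in 5 of 14 alternatives. The division of calls between clusters was not itself tested.

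Hoxb1 showed the clearest fall. It had 37.8, 37.2 and 33.3 FPKM in RA_OGTi, against 62.1, 62.7 and 51.7 FPKM in RA_control. All RA_OGTi libraries lay below all RA_control libraries, and the ratio of the means was 0.614. The difference was -0.69 ± 0.08 in log2(FPKM + 1), with an adjusted p of 0.000122, and it was called in all 15 alternative analyses, in which the adjusted p ran from 3.97e-07 to 0.048. Hoxb1 made up 25.7%, 25.3% and 22.8% of the summed Hox FPKM in RA_OGTi, against 38.5%, 40.6% and 35.9% in RA_control. The rest of the Hox RNA, without Hoxb1, summed to 109, 110.2 and 113 FPKM in RA_OGTi, against 99.1, 91.7 and 92.5 FPKM in RA_control.

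**Figure D3:**
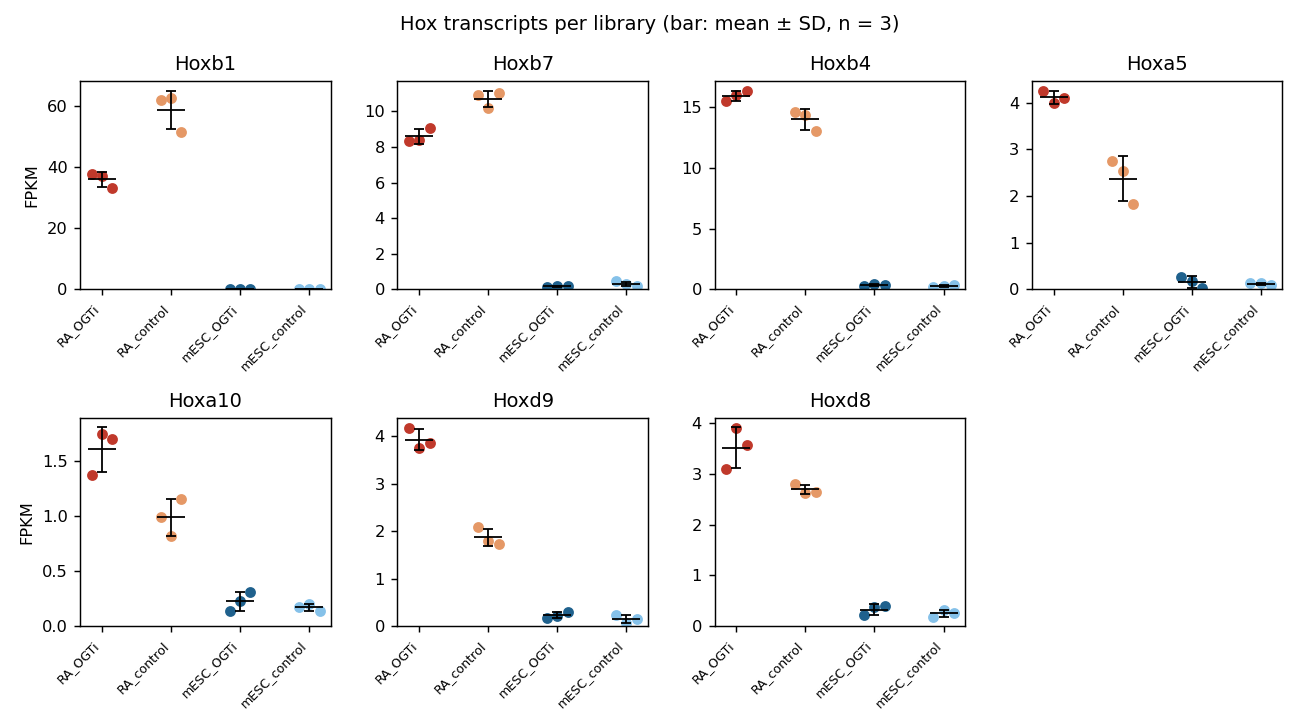
FPKM of 7 Hox genes in every library, with a black bar and whiskers at the mean ± SD of the 3 libraries of a group; each panel has its own axis from 0. Hoxb1 and Hoxb7 are lower in RA_OGTi than in RA_control, Hoxa5, Hoxa10, Hoxd8 and Hoxd9 are higher, Hoxb4 was not called, and all 7 are low in both stem cell groups.

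Hoxd9, which patterns the lumbar region and the limbs, showed the largest rise among the called genes on the log2(FPKM + 1) scale. It had 4.19, 3.76 and 3.85 FPKM in RA_OGTi, against 2.08, 1.80 and 1.74 FPKM in RA_control. The groups were far apart and the ratio of the means was 2.10, on 481 fragments in RA_OGTi and 215 in RA_control. The difference was 0.78 ± 0.09 in log2(FPKM + 1) with an adjusted p of 0.000113, called in all 14 alternatives. Its neighbour Hoxd8, a gene of trunk patterning, had 3.09, 3.90 and 3.56 FPKM in RA_OGTi, against 2.81, 2.63 and 2.65 FPKM in RA_control (0.29 ± 0.09, adjusted p = 0.0334). That call was lost in 8 of 14 alternatives, although the groups did not overlap. Hoxd9 lies at chr2:74697727-74700208 (ENSMUSG00000043342) and Hoxd8 at chr2:74704615-74707933.

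In the Hoxa cluster Hoxa5, needed for lung and neck development, had 4.25, 3.99 and 4.10 FPKM in RA_OGTi, against 2.75, 2.54 and 1.83 FPKM in RA_control. Its difference was 0.61 ± 0.11 in log2(FPKM + 1), with an adjusted p of 0.0020, lost in 1 of 14 alternatives, a pseudocount of 0.1 (0.0928). Hoxa10, which patterns lumbar vertebrae and the uterus, had 1.38, 1.75 and 1.70 FPKM in RA_OGTi, against 0.997, 0.818 and 1.15 FPKM in RA_control (0.39 ± 0.10, adjusted p = 0.0142, called in 10 of 14 alternatives). Hoxa2, which shapes the branchial arch skeleton, had 1.39, 1.75 and 1.78 FPKM in RA_OGTi, against 0.935, 1.09 and 1.20 FPKM in RA_control (0.35 ± 0.10, adjusted p = 0.0215, called in 9 of 14 alternatives). For all 3 genes the groups did not overlap. Of the exon bases of Hoxa2, 15.0% are shared on the same strand with another annotated gene, Gm28308, so its level is uncertain.

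Between them, Hoxa3 and Hoxa4 showed no such rise. Hoxa3 had 1.83, 1.91 and 1.60 FPKM in RA_OGTi and 1.76, 1.87 and 1.68 FPKM in RA_control, and Hoxa4 had 2.50, 3.15 and 2.65 FPKM in RA_OGTi and 2.97, 3.09 and 3.15 FPKM in RA_control. Both sets of values overlapped, and neither gene was called (adjusted p = 0.979 for Hoxa3 and 0.493 for Hoxa4).

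The other Hoxb genes were mixed. Hoxb7 had 8.34, 8.38 and 9.07 FPKM in RA_OGTi, against 10.9, 10.2 and 11.0 FPKM in RA_control, without overlap. Its difference of -0.28 ± 0.07 had an adjusted p of 0.0138 and was lost in 2 of 14 alternatives, a pseudocount of 0.1 (0.219) and leaving out RA_OGTi replicate 1 (0.0554). Hoxb9 had 9.36, 8.64 and 8.64 FPKM in RA_OGTi, against 12.1, 10.2 and 9.95 FPKM in RA_control, also without overlap but not called (-0.24 ± 0.09, adjusted p = 0.0532). Hoxb4 had 15.5, 16.0 and 16.3 FPKM in RA_OGTi and 14.6, 14.3 and 13.0 FPKM in RA_control, without overlap, and was not called (0.18 ± 0.07, adjusted p = 0.0629). Hoxb6, also a gene of the thoracic skeleton, had 2.96, 2.15 and 3.18 FPKM in RA_OGTi and 2.26, 1.34 and 2.17 FPKM in RA_control, with overlap. Its difference of 0.37 ± 0.14 was not called (adjusted p = 0.0624), but the adjusted p ran from 0.0242 to 0.244 over the 14 alternatives and passed in 5, among them leaving out RA_control replicate 1 and leaving out RA_OGTi replicate 2.

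**Figure D4:**
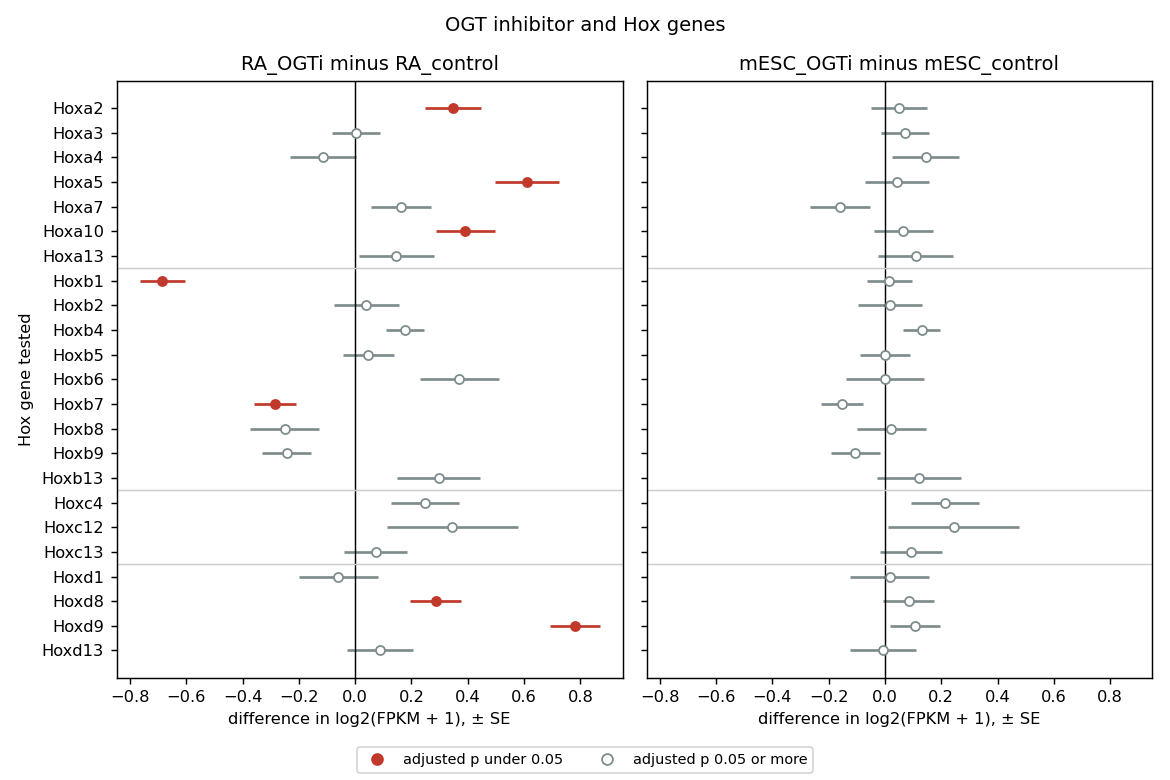
Difference in log2(FPKM + 1) with and without inhibitor, ± SE from limma, for 23 Hox genes that passed the filter, in RA-treated cells on the left and stem cells on the right; filled red points have an adjusted p under 0.05. On the left 5 points of Hoxa and Hoxd genes are filled to the right of 0 and those of Hoxb1 and Hoxb7 to its left, and on the right no point is filled.

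Below the filter, the entries called higher in RA_OGTi were Hoxa6, Hoxc11, Hoxd3, Hoxd11 and Hoxd12, named because they complete the count. Hoxd11 had 41, 30 and 48 fragments in RA_OGTi, against 10, 20 and 15 in RA_control. Hoxc11 had 10, 14 and 10 fragments in RA_OGTi, against 1, 2 and 2 in RA_control. Hoxa6, Hoxd3 and Hoxd12 had at most 12 fragments in any RA_OGTi library and at most 3 in any RA_control library. Hoxd3 shares 62.3% of its exon bases on the same strand with Hoxd4 and Gm28230, so its level, and those of both Hoxd4 entries, are uncertain. The first Hoxd4 entry (ENSMUSG00000101174) was at 0 in all 12 libraries and the second (ENSMUSG00000115956) reached at most 0.0836 FPKM.

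Taking values alone, 14 of the 39 entries had all 3 RA_OGTi values above all 3 RA_control values, where 14.1% of all genes did, and 3 had them all below, where 12.5% did. The 14 included Hoxa13, Hoxb4 and Hoxc4, which were not called under the filter. The 3 were Hoxb1, Hoxb7 and Hoxb9.

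In stem cells the inhibitor moved no Hox gene past the threshold. With the filter, 0 of 24 were called by limma, where 4.60% of all genes rose and 3.18% fell, and 0 of the 24 had an unadjusted p under 0.05. Without the filter 0 of 39 were called and 1 had an unadjusted p under 0.05, Hoxc11, where 1.24% of all genes rose and 0.803% fell. Limma-voom on the recovered fragments also called 0, with 3 at an unadjusted p under 0.05. Of all 24263 genes in that fit, 654 rose and 370 fell. The differences of the 24 ran from -0.16 to 0.24 on the log2(FPKM + 1) scale. Most of these genes were at a few fragments per library, so small changes were not detectable at this depth. Hoxc9 was above, and Hoxa7 and Hoxa9 below, in all 3 mESC_OGTi libraries, where 9.13% of all genes were so above and 7.50% so below.

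The inhibitor's effect in RA-treated cells differed from that in stem cells for 2 of 24 genes, where 3.90% of all genes were more positive and 3.79% more negative. Hoxb1 differed by -0.70 ± 0.11 in log2(FPKM + 1), with an adjusted p of 0.00517, and Hoxd9 by 0.67 ± 0.13, with an adjusted p of 0.0105. Both calls rest on the added 1 FPKM: with a pseudocount of 0.1 the adjusted p was 0.197 for Hoxb1 and 0.411 for Hoxd9, and with limma-voom on fragments it was 0.791 for Hoxb1 and 0.829 for Hoxd9. Hoxb1 had 0, 3 and 0 fragments in mESC_OGTi and 2, 0 and 0 in mESC_control, so a ratio in stem cells is barely defined. Hoxa5 (0.57 ± 0.16, adjusted p = 0.0523) did not pass.

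Some markers of other cell states moved beside the Hox genes in RA-treated cells. The 5 pluripotency markers summed to 233 to 250.3 FPKM in RA_OGTi, against 283 to 318 FPKM in RA_control; 4 of the 5 fell and 1, Esrrb, rose. The 7 mesoderm and primitive streak markers summed to 6.78 to 7.68 FPKM in RA_OGTi, against 4.59 to 5.56 FPKM in RA_control. The 6 extraembryonic endoderm markers summed to 32.2 to 34.5 FPKM in RA_OGTi, against 29.4 to 31.4 FPKM in RA_control. The 8 neural markers summed to 18.7 to 22.94 FPKM in RA_OGTi, against 22.92 to 25.2 FPKM in RA_control, with slight overlap. Trophoblast and fibroblast sums also overlapped, at 15.5 to 17.9 and 20.6 to 21.2 FPKM in RA_OGTi and 14.0 to 16.5 and 19.9 to 23.2 FPKM in RA_control. The part of these shifts in the Hox differences was not tested.

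Among the RNAs that lie inside the clusters and are not Hox proteins, 47 were listed, 28 had any fragment and 12 passed the filter. In RA_control over mESC_control 6 of the 12 rose and 2 fell, where 33.7% of all genes rose and 37.2% fell. Of those that rose, all except Hotairm1 passed the filter only through RA libraries, so the filter selected for their rise. In RA_OGTi over RA_control 3 rose and 1 fell, all 4 named here because they make up the count. Of all genes, 17.6% rose and 14.3% fell in that comparison, and the difference from these shares was not tested. Hotairm1, a non-coding antisense RNA of the Hoxa cluster, had 33.6, 33.9 and 36.6 FPKM in RA_OGTi, against 25.4, 23.3 and 23.6 FPKM in RA_control (adjusted p = 0.0391), a call lost in 9 of 15 alternatives. Gm15050, also antisense in Hoxa, averaged 6.44 ± 0.63 FPKM in RA_OGTi and 3.67 ± 0.54 FPKM in RA_control (adjusted p = 0.00185). Gm53, a long non-coding RNA between Hoxb13 and Hoxb9, averaged 2.38 ± 0.24 FPKM in RA_OGTi and 1.01 ± 0.14 FPKM in RA_control (adjusted p = 8.29e-05). Hoxb3os averaged 0.53 ± 0.21 FPKM in RA_OGTi and 1.17 ± 0.12 FPKM in RA_control (adjusted p = 0.00631). It passed the filter only through its RA_control libraries, the group in which it was higher, so the filter selected for this difference. With a pseudocount of 0.1 limma called neither Gm15050 (adjusted p = 0.182) nor Hoxb3os (adjusted p = 0.113). The exons of Hoxb3os cover 52.9% of those of Hoxb3 and 27.3% of those of Hoxb2. The strand setting of the counting is not given, so reads of such pairs cannot be told apart.

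The protein-coding genes around the clusters moved both ways. Of the nearest 40, 5 on each side of each cluster and up to 1170707 bases away, 33 passed the filter. In RA_control over mESC_control 14 rose and 15 fell, with a median of -0.042 on the log2(FPKM + 1) scale. Of all genes, 33.7% rose and 37.2% fell. Skap1, an adaptor of T cell signalling and the first gene beyond Hoxb1, averaged 1.65 FPKM in RA_control and 0.231 FPKM in mESC_control (adjusted p = 3.77e-07). Skap1 was named after its values were seen. It passed the filter only through RA libraries, so the filter selected for its rise. In RA_OGTi over RA_control 4 rose and 5 fell, with a median of -0.012, where 17.6% of all genes rose and 14.3% fell.

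Cofactors and regulators of the Hox genes were described from lists. The list counts stand beside shares of all genes of 33.7% higher and 37.2% lower in RA_control over mESC_control. In RA_OGTi over RA_control these shares were 17.6% and 14.3%. Whether any list differed from these shares was not tested. Of 9 TALE homeodomain cofactors, which bind DNA together with Hox proteins, 8 rose and 1 fell in RA_control over mESC_control, and 3 rose and 1 fell in RA_OGTi over RA_control. Meis2 averaged 3.19 ± 0.26 FPKM in RA_OGTi and 2.26 ± 0.16 FPKM in RA_control (adjusted p = 0.00617). Pbx2 averaged 42.3 ± 2.5 FPKM in RA_OGTi and 35.7 ± 2.4 FPKM in RA_control (adjusted p = 0.0165), and Pknox2 averaged 2.36 ± 0.26 FPKM in RA_OGTi and 1.72 ± 0.19 FPKM in RA_control (adjusted p = 0.0239). The call of Pknox2 was lost in 6 of 14 alternatives, that of Pbx2 in 2 of 15 and that of Meis2 in 1 of 14.

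Of 7 Cdx and hindbrain regulators 5 were tested, of which 4 rose and 1 fell with RA in RA_control and 1 rose and 1 fell in RA_OGTi over RA_control. Gbx2, which places the midbrain-hindbrain border, averaged 7.61 ± 0.30 FPKM in RA_OGTi and 9.88 ± 0.86 FPKM in RA_control (adjusted p = 0.00215).

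Of 14 genes of RA reception and breakdown 13 were tested, and 6 rose and 2 fell in RA_OGTi over RA_control. Of all genes, 17.6% rose and 14.3% fell. Cyp26a1, the enzyme that degrades RA and is itself an RA target, averaged 205 ± 9.8 FPKM in RA_OGTi and 134 ± 9.1 FPKM in RA_control (adjusted p = 0.000809). Its relative Cyp26c1 averaged 3.15 ± 0.33 FPKM in RA_OGTi and 1.82 ± 0.36 FPKM in RA_control (adjusted p = 0.00792). With a pseudocount of 0.1 neither was called (adjusted p = 0.0875 for Cyp26a1 and 0.249 for Cyp26c1). The receptor gene Rara averaged 21.8 ± 1.4 FPKM in RA_OGTi and 15.6 ± 1.7 FPKM in RA_control (adjusted p = 0.000825). The 2 that fell were a receptor gene and a Cyp26 gene. Rarg averaged 27.1 ± 0.36 FPKM in RA_OGTi and 35.5 ± 2.8 FPKM in RA_control (limma adjusted p = 0.00092). Cyp26b1 averaged 5.55 ± 0.33 FPKM in RA_OGTi and 6.89 ± 0.33 FPKM in RA_control (limma adjusted p = 0.020). No alternatives are given for these 2.

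Chromatin regulators of the clusters moved in both directions, where 17.6% of all genes rose and 14.3% fell in RA_OGTi over RA_control. Of 19 Polycomb subunits, the repressors of the Hox clusters, 4 rose and 3 fell in RA_OGTi over RA_control, with Pcgf2 at 0.28, Cbx7 at 0.25 and Mtf2 at -0.28 on the log2(FPKM + 1) scale; the call of Mtf2 was lost in 6 of 15 alternatives. Of 13 genes of MLL complexes and H3K27 demethylases, which oppose Polycomb, 12 were tested and 3 rose and 1 fell, with Hcfc1, a protein that OGT binds and modifies, at 0.38, Ash2l at 0.37 and Kdm6b at 0.23, the last lost in 4 of 15 alternatives. Of 7 Hox-binding partners 1 rose and 1 fell, Hdac1 at 0.31 and geminin (Gmnn), an inhibitor of Hox function, at -0.35.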

How the data were processed

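Per the labels' protocols, RNA came from a TRIzol extraction and libraries from an NEBNext Ultra kit. Per the submitters' processing notes, HISAT2 2.0.5, featureCounts 1.5.0 and GRCm38 were used. The deposited values are FPKM per gene, computed by the authors; the sources used here do not give their formula, filters or strand setting. Multiplying FPKM by gene length recovered whole fragments (tolerance 0.02) for 100% of values.

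Tests used limma 3.58.1 in R 4.3.3 on log2(FPKM + 1), with a variance trend, in 1 fit of 12 libraries, on the 14866 genes that reached 1 FPKM in 3 libraries or more. They were two-sided, with Benjamini-Hochberg adjustment at 0.05. This scale understates changes of low genes. There were 5 comparisons: RA without and with inhibitor, the inhibitor in stem cells and in RA-treated cells, and the difference of the last 2; each group's libraries serve in several of them. Members and lists were chosen with earlier results of these data known. Values in every library were printed for the 2 highest members of each cluster in RA_control and for every member called in an inhibitor comparison, except where not reported here; members named beyond that were chosen after their values were seen. In other lists up to 3 called genes with the largest difference were named, and of the RA genes also the 2 that fell.

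As alternatives the pseudocount was 0.1, the filter was left out or set at a mean of 5 FPKM, and the tests were repeated with 2 scalings (median-of-ratios, and equal summed FPKM per library), no trend, with replicate number as a block, a fit of the compared groups only, limma-voom on recovered fragments with at least 10 per gene, and leaving out each library. Exon overlaps came from GENCODE M21, where 38 entries had the same coordinates. The script was tested on simulated data. Figures and tables used Python 3.11.15, pandas 2.3.3, numpy 2.4.6 and matplotlib 3.10.9.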

Additional observations from a re-analysis of the deposited data

Results flagged for a closer look

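The inhibitor's effect on log2(FPKM + 1) differed between RA-treated cells and stem cells, by limma's test of the difference, for 9 of the genes named here. Of all genes, 3.90% were more positive and 3.79% more negative. Gbx2, Cyp26a1, Rara and Gm53 were named because they were called in RA_OGTi over RA_control. That comparison is part of this difference, so the count of 9 cannot be read against the shares of all genes. Hoxb1 differed by -0.70 (adjusted p = 0.00517) and Hoxd9 by 0.67 (adjusted p = 0.0105); both calls were lost with a pseudocount of 0.1 and with limma-voom on fragments. Gbx2 differed by 0.43 (adjusted p = 0.0163): it averaged 7.61 ± 0.30 FPKM in RA_OGTi and 9.88 ± 0.86 FPKM in RA_control, and 7.06 ± 0.31 FPKM in mESC_OGTi and 12.7 ± 0.49 FPKM in mESC_control. Cyp26a1 differed by 0.56 (adjusted p = 0.0303), with stem cell levels of 0.343 ± 0.21 FPKM in mESC_OGTi and 0.291 ± 0.068 FPKM in mESC_control. Rara differed by 0.38 (adjusted p = 0.0485), with 22.7 ± 0.24 FPKM in mESC_OGTi and 21.4 ± 1.1 FPKM in mESC_control. Gm53 differed by 0.65 (adjusted p = 0.00759), with 2.38 ± 0.24 FPKM in RA_OGTi and 1.01 ± 0.14 FPKM in RA_control, and 3.23 ± 0.13 FPKM in mESC_OGTi and 2.95 ± 0.25 FPKM in mESC_control. Among the pluripotency markers, Nanog differed by -0.52 (adjusted p = 0.00327), with 26.0 ± 0.77 FPKM in RA_OGTi and 37.1 ± 2.3 FPKM in RA_control. Sox2 differed by -0.32 (adjusted p = 0.0215), with 44.5 ± 2.2 FPKM in RA_OGTi and 58.3 ± 2.0 FPKM in RA_control. Esrrb differed by 0.30 (adjusted p = 0.0422), with 12.04 ± 1.03 FPKM in RA_OGTi and 8.27 ± 0.21 FPKM in RA_control.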

How the results depend on the processing

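No called Hox difference changed direction in the alternatives. That of Hoxa3 between RA_OGTi and RA_control, which was near 0 and not called, ran from -0.030 to 0.052 leaving out each library; it was below 0 without RA_control replicate 3, RA_OGTi replicate 1 or RA_OGTi replicate 2. For RA_control over mESC_control, 21 rose with the filter at 1 FPKM and 4 with the filter at a mean of 5 FPKM; leaving out each library gave 21 to 22. The 1 lower call, Hoxc12, became 0 with no filter, with the stricter filter, with equal summed FPKM, in the fit of the compared groups and with the replicate number as a block, and 0 to 1 leaving out each library. For RA_OGTi over mESC_OGTi, 22 rose with the filter, 34 with none, 34 with limma-voom and 4 with the stricter filter, and 21 to 22 leaving out each library; 0 fell, but 1 did without mESC_OGTi replicate 1 (0 to 1).

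For RA_OGTi over RA_control, the 6 higher calls became 7 with equal summed FPKM, no variance trend or the replicate number as a block, 8 with limma-voom, 2 with a pseudocount of 0.1, 10 with no filter and 1 with the stricter filter, and 3 to 6 leaving out each library, 3 without RA_OGTi replicate 3. The 2 lower calls became 3 with limma-voom, 1 with a pseudocount of 0.1 and 1 with the stricter filter, and 1 to 3 leaving out each library, 1 without RA_OGTi replicate 1. For the difference of inhibitor effects, the 1 higher call became 0 with a pseudocount of 0.1, the stricter filter and limma-voom, 2 with no variance trend and 2 with the replicate number as a block, and 1 to 2 leaving out each library, 2 without mESC_control replicate 1 or RA_control replicate 1; the 1 lower call became 0 with a pseudocount of 0.1 and with limma-voom. The stricter filter tests fewer genes. So does the fit of the compared groups, which for RA_control over mESC_control tested 18 entries and left out Hoxc12. The fit with no filter and limma-voom tested 39 entries, against 24 with the filter. For the other settings the cause was not tested. Of called members, 21 of 22, 21 of 22, 3 of 8 and 0 of 2 were called in every alternative, in the order of comparisons above.

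Deviations of libraries with the same replicate number correlated at -0.021 to 0.12 over 18 pairs, and with different numbers at -0.18 to 0.13 over 36. These ranges overlap, and with 3 libraries per group they cannot show whether the numbers pair the libraries. The block is therefore given only as an alternative. With it 4879 of all genes were called in RA_OGTi over RA_control, against 4738 without it. Scaling to equal summed FPKM moved the median of all genes with RA to 0.17, against -0.035 as deposited, and gave 6708 higher and 3721 lower calls, against 5007 and 5527; 22 Hox genes then rose. Entries under about 10 fragments limit what can be seen in stem cells.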
